A study of Mus musculus with 4 samples.

Results

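The Gadd45 family consists of 3 genes in the mouse, Gadd45a, Gadd45b and Gadd45g, which encode small acidic proteins induced by stress and by differentiation signals. To see how SCL occupies chromatin around them, the SCL peaks were collected whose summit lay nearest, among all protein-coding genes, to a transcription start site (TSS) of a family member. This gave 24 of the 12885 peaks of the list. Gadd45g was the nearest gene of 21 of them and Gadd45a of 3, while no peak had Gadd45b as its nearest gene. The family was chosen by the high number of peaks at Gadd45g and the run of 9 peaks around that gene in this same list, so these counts are a description of what selected it and were not tested.

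The peaks come from chromatin immunoprecipitation and sequencing (ChIP-seq) with an in-house rabbit antiserum against SCL, the product of Tal1. FLK1+ mesodermal cells, which carry the VEGF receptor that marks the precursors of blood and endothelium, were isolated at day 3.5 from embryoid bodies, the aggregates formed by wild type mouse ES cells (line J1, strain labelled C57Bl/6 X Sv129) as they differentiate. There were 2 ChIP libraries from 2 independent differentiations and 2 input libraries made without antibody. The list holds no expression values, so the identity of the sorted cells could not be checked against marker genes, and whether any family gene was expressed was not analysed here. Because all libraries of a kind were merged before the peaks were called, no value has a replicate error, and the 95% intervals given are Poisson intervals of the fragment count at the summit that cover counting error only.

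GADD45 proteins have no known enzymatic activity and act by binding others. They bind the sliding clamp PCNA, the cell cycle inhibitor p21 (Cdkn1a) and the CDK1-cyclin B1 complex, activate the kinase MAP3K4 upstream of p38 and JNK, and take part in active DNA demethylation with TET and TDG enzymes. Gadd45a is known as a target of p53, Gadd45b was first found as a gene induced in differentiating myeloid cells, and Gadd45g as a gene induced by cytokines. SCL itself is a basic helix-loop-helix factor that binds E-boxes as a heterodimer with E proteins and joins GATA factors in a complex bridged by LMO2 and LDB1.

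The sequences at the summits show what lay under selected peaks of the family, not all of them among its strongest. Each runs from 50 bp before to 50 bp after a summit, read on the plus strand of mm9, and capitals mark E-boxes (CANNTG), GATA motifs (the letters GATA with A or T before and A or G after them, on either strand) and the CTG of a composite motif. The composite is CTG followed after 7 to 9 bases by GATA, the arrangement in which an E-box part and a GATA site stand side by side. Shown are the strongest peak of Gadd45a and of Gadd45g and the peaks of fold enrichment of at least 20 next to the Gadd45g gene. The peaks at −11.6 and +224.8 kb were added after their values had been seen, as the composite of the run of 9 and as the next strongest peak of Gadd45g. The names give the distance of the summit from the TSS, with a minus sign for upstream.
Gadd45a +2.7 kb, chr6:66984654-66984754: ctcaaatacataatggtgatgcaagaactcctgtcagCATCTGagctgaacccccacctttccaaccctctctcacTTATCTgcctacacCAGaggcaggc
Gadd45g −11.6 kb, chr13:51930414-51930514: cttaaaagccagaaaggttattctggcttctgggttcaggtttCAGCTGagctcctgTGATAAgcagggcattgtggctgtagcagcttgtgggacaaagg
Gadd45g −4.8 kb, chr13:51937244-51937344: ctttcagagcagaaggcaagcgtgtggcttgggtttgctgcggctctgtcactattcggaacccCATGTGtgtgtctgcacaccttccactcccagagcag
Gadd45g +2.2 kb, chr13:51944182-51944282: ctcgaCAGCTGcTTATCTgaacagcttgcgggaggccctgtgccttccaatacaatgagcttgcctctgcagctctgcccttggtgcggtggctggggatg
Gadd45g +129.7 kb, chr13:52071658-52071758: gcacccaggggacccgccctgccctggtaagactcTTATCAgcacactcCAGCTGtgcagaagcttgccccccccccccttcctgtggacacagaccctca
Gadd45g +224.8 kb, chr13:52166829-52166929: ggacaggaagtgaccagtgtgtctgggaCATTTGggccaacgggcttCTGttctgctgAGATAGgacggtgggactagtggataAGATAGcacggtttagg

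A composite motif was present at +2.7 kb of Gadd45a and at −11.6, +129.7 and +224.8 kb of Gadd45g. The windows were picked, that at −11.6 kb for its composite, so their share does not describe the family. Over all 24 family peaks the composite was in 9, against 32.9% of all peaks. At −11.6 and +129.7 kb the CTG of the composite belonged to an E-box of the form CAGCTG. The window at +2.2 kb also held CAGCTG, separated by a single base from a GATA motif at the edge of the window, with centres at −42.5 and −35.5 bp from the summit. The window at −4.8 kb held an E-box but no GATA motif, although this was the second strongest peak near the gene.

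Of the 22225 protein-coding genes, 29.1% had at least 1 nearest peak and 6.59% had at least 3, so Gadd45a and Gadd45g belonged to the smaller share. Gadd45g, with 21, had the highest number of all genes by this rule. It was at rank 23, with 10 peaks, when TSSs of lincRNAs and processed transcripts were included, at rank 7 when only peaks within 100 kb of their nearest TSS were counted and at rank 12 by peaks within 10 kb of a TSS. By the nearest protein-coding TSS it was followed by Gse1 and Med13l, with 19 peaks each, and Bcor, Magi1 and Runx1 were among the genes with 16. The median over genes with any peak was 1, and 35 genes had more than 10. By the summed fragments above background, Gadd45g was at rank 24, with 2149 fragments, whereas Gadd45a had 152.9 fragments. Peaks of high background were not left out of this rank. Genes ahead of Gadd45g included Gm10801 and Gm10718, whose highest folds were only 3.32 and 3.29.

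A nearest-gene count depends on the length of DNA to which a gene is the nearest, so that length was computed for every gene. The TSSs of Gadd45g (ENSMUSG00000021453.2, chr13:51942047-51943837, plus strand) were nearest over 368.6 kb, which reached 26.5 kb upstream, up to the midpoint to Sema4d, and 342.1 kb downstream, up to the midpoint to Diras2. Over that stretch it had 5.70 peaks per 100 kb, against 0.485 over all chromosomes. In the 871 genes with a stretch of similar length, the shorter at least 0.8 times the longer, the median was 1 peak, the highest count was 14 and 286 genes had none. Gadd45g was not the densest gene, with 7.74 peaks per 100 kb at Gse1 and, over shorter stretches, 48.9 at Accn4, 13.0 at Aplnr, 12.7 at Cbfa2t3 and 5.86 at Ddc. The members' own stretches differed in length, 185.4 kb for Gadd45a and 39.97 kb for Gadd45b, which was close to the median of 45.7 kb over all genes.

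**Figure D1:**
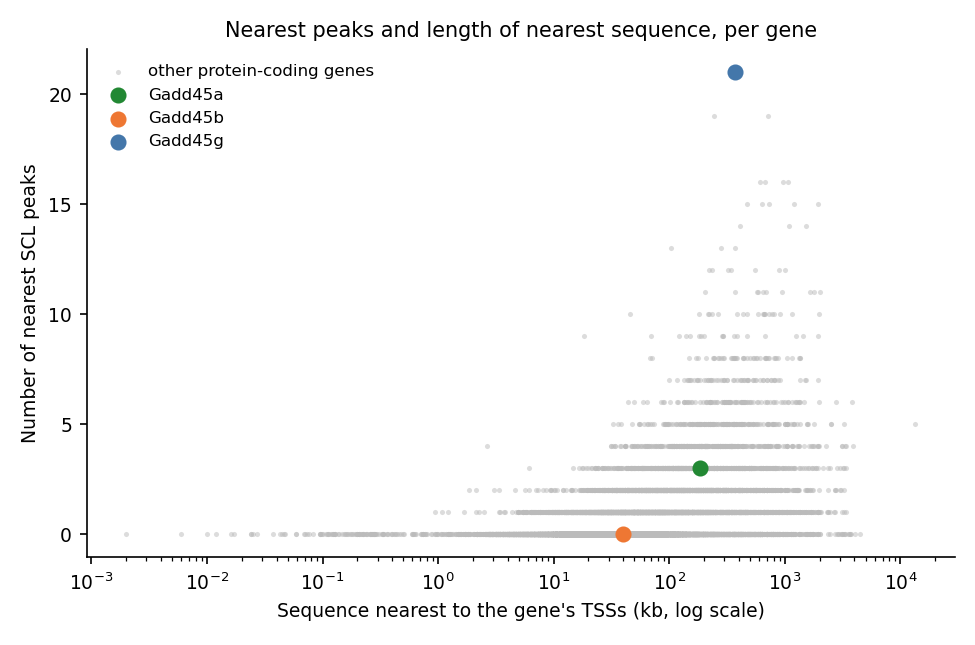
Number of nearest SCL peaks of each protein-coding gene (y axis) against the length of the sequence to which its TSSs are nearest (x axis, kb, log scale). Each grey point is a gene. Gadd45g, with 21 peaks over 368.6 kb, is above all others by the nearest protein-coding TSS, Gadd45a has 3 over 185.4 kb and Gadd45b has 0 over 39.97 kb.

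Gadd45b, the member best known from myeloid differentiation, had no peak of its own. The gene (ENSMUSG00000015312.8, chr10:80392836-80394949, plus strand) is flanked by Lmnb2, a lamin gene, and by Gng7, a G protein subunit gene. The nearest summit was 14.6 kb away from its TSS, in a peak at chr10:80378084-80378367 with a fold of 8.75 and 49 fragments that is nearest to Lmnb2. On the other side, the closest peak was at chr10:80568949-80569569, 142.5 kb past the midpoint to Gng7, and had a fold of 56.9 and 373 fragments. No peak was therefore called between 14.6 kb upstream of Gadd45b and the far side of Gng7, and binding below the threshold of the peak caller cannot be seen in a list of peaks.

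At Gadd45a, the p53 target of the family, SCL occupied 1 site near the gene and 2 far upstream. The gene (ENSMUSG00000036390.6, chr6:66985090-66987451, minus strand) had its strongest peak at chr6:66984457-66984862, with a fold of 15.8 (95% interval 12.2 to 20.04) and 65 fragments. That summit lay 2.7 kb downstream of the TSS and 386 bp past the 3′ end of the gene, in intergenic sequence. The peak at −108.8 kb, chr6:67095950-67096339, had a fold of 11.6 (8.77 to 15.1) and 54 fragments. The peak at −112.2 kb, chr6:67099393-67099711, had a fold of 8.86 (6.51 to 11.8) and 45 fragments. The fold intervals of the first and the last of these did not overlap, while that of the peak at −108.8 kb overlapped both. The fragment intervals of the first and the last, 50.2 to 82.8 and 32.8 to 60.2, did overlap. Both upstream peaks lay 3440 bp apart in an intron of the lincRNA A430010J10Rik, whose own TSS was closer to them than that of Gadd45a. The lincRNA E230016M11Rik, which overlaps the start of Gadd45a, likewise had a TSS closer to the peak at +2.7 kb, so all 3 peaks were assigned to Gadd45a among protein-coding genes only. The genes on either side, Gng12 and the mRNA-binding protein gene Serbp1, lay beyond all 3 peaks, and Gng12 had no peak nearest to it. The next peaks of the list were 1171 kb and 2967 kb beyond the midpoints to these neighbours, which leaves the 3 peaks alone in a long region without calls.

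SCL occupied Gadd45g over a much wider region. The 21 summits lay between −12.9 and +238.6 kb from the TSS, 6 of them upstream and 15 downstream. Within 5, 10, 20 and 100 kb of the TSS there were 4, 6, 9 and 13 peaks, the last count including a peak of Sema4d, and 9 of the 21 lay beyond 100 kb. At least 1 peak within 10 kb of a TSS was found in 16.6% of genes, Gadd45a (1 peak) among them. None of the 21 lay in the Gadd45g gene itself, which spans only 1791 bp. Sequence between genes held 20 of them, and the other lay in an exon of the lincRNA Gm16767, the only other gene annotated in the stretch.

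**Figure D2:**
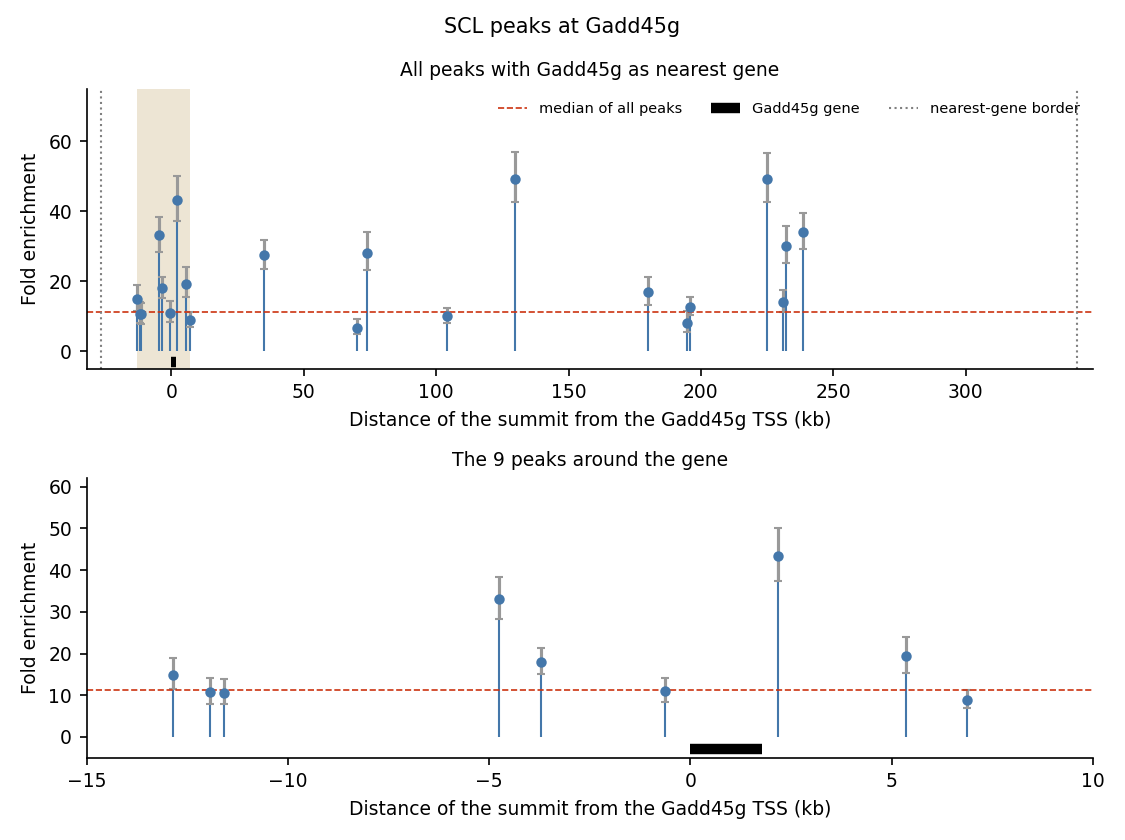
Fold enrichment (y axis) of the peaks nearest to Gadd45g against the distance of the summit from its TSS (x axis, kb), over the whole stretch nearest to the gene (top) and around the gene (bottom). Points are single peaks with Poisson 95% intervals, the dashed line is the median of all peaks, 11.1, the black bar is the gene, the shaded area is the run of 9 peaks and dotted lines are the midpoints to the neighbouring TSSs. The strongest peaks, +129.7 and +224.8 kb, lie far downstream.

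The 9 peaks closest to Gadd45g formed an unbroken run in which each summit was within 10 kb of the next. The run extended over 20257 bp, chr13:51929042-51949298, of which 23.7% was covered by peaks, and the gaps between summits were 343 to 6830 bp. In the whole list 8881 peaks had no neighbour within 10 kb, 1691 runs of 2 or more peaks existed and 117 held 4 or more. Runs of at least 9 peaks numbered 3. The longest, 23 peaks at the start of chromosome 9, lay in sequence with a median background of 308.6 fragments, whereas the background at the Gadd45 family ranged from 2.70 to 7.86 around a list median of 3.67. The other run of 9 surrounded Accn4, an acid-sensing ion channel gene, at chr1:75442706-75461542, and its highest fold was 103.7, compared with 43.4 at Gadd45g.

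The distal group of the run consisted of 3 peaks of modest height. The peak at −12.9 kb, chr13:51929042-51929341, had a fold of 14.8 (11.5 to 18.9) and 65 fragments. The peak at −11.9 kb, chr13:51929982-51930257, had a fold of 10.7 (7.98 to 14.1) and 49 fragments. At −11.6 kb, chr13:51930350-51930600, the fold was 10.5 (7.80 to 13.8) with 48 fragments. The last of these, whose sequence holds CAGCTG and a composite, was therefore no stronger than its neighbour, and the intervals of all 3 overlapped.

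Upstream of the promoter the enrichment was higher. The peak at −4.8 kb, chr13:51937099-51937846, had a fold of 33.1 (28.4 to 38.4) and 173 fragments, and the peak at −3.7 kb, chr13:51937992-51938547, had a fold of 18.0 (15.2 to 21.3) and 140 fragments. Their fold intervals did not overlap, with the local background held fixed at 4.25 and 6.81 fragments. The intervals of their fragment counts, 148.2 to 200.8 and 117.8 to 165.2, did overlap. The folds are ratios taken after a single fragment is added to both the count and the background. The peak next to the promoter, 617 bp upstream of the TSS at chr13:51941146-51941593, reached a fold of 11.0 (8.34 to 14.2) with 56 fragments. It was weaker than the peaks on both sides of it, with no overlap of intervals, and close to the list median of 11.1.

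Downstream of the gene 3 peaks completed the run. The summit at +2.2 kb lay 395 bp past the 3′ end of Gadd45g in a peak, chr13:51943864-51944627, with a fold of 43.4 (37.3 to 50.1) and 183 fragments, the strongest of the 9. The peak at +5.4 kb, chr13:51947273-51947705, had a fold of 19.3 (15.4 to 23.97) and 81 fragments. At +6.9 kb, chr13:51948280-51949298, the fold was 8.83 (6.89 to 11.2) with 68 fragments. This was the lowest fold of the run and, at 1019 bp, its widest peak. The fewest fragments of the run, 48, were at −11.6 kb. The strongest peak near Gadd45g and the strongest at Gadd45a thus had a like position, just past the 3′ end of a short gene, and differed in fold beyond counting error, 43.4 against 15.8.

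Beyond the run, 12 peaks stood between +35.0 and +238.6 kb, with a median fold of 22.1 against 14.8 within the run. They carried 61.7% of the fragments above background at Gadd45g. The peak at +35.0 kb, chr13:51976824-51977254, had a fold of 27.4 (23.5 to 31.8) and 170 fragments. The peak at +74.1 kb, chr13:52015791-52016315, had a fold of 28.2 (23.2 to 34.0) and 110 fragments. These fold intervals overlapped. The peak at +70.1 kb, with 41 fragments, had the lowest fold of all 21, 6.73. The fewest fragments, 29, were at +194.8 kb.

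The peak of highest fold in the family was at +129.7 kb, chr13:52071298-52072168, with a fold of 49.4 (42.6 to 57.0) and 186 fragments. It was at rank 959 of all peaks by fold. Its summit lay in an exon of Gm16767 (chr13:52068583-52071952, plus strand), 3125 bp from the TSS of this lincRNA. From +70.1 kb onwards, all 11 Gadd45g peaks were closer to the TSS of Gm16767 than to that of Gadd45g. Within the fragment count this peak could not be separated from the peak at +224.8 kb, chr13:52166314-52167006, which had a fold of 49.3 (42.6 to 56.7) and 193 fragments, nor from that at +2.2 kb. These were followed by the peaks at +238.6 kb (chr13:52180393-52181227; fold 34.1, 29.3 to 39.5, 176 fragments), −4.8 kb and +232.2 kb (chr13:52174015-52174686; fold 30.1, 25.3 to 35.7, 133 fragments), whose intervals overlapped as well.

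The peaks at +224.8, +231.2, +232.2 and +238.6 kb formed a run of 4, with summits spread over 13815 bp, that held 26.3% of the fragments above background at Gadd45g. The remaining distal peaks, at +103.9, +179.9, +194.8 and +195.9 kb, had folds of 9.93, 16.9, 8.11 and 12.7 and 29 to 105 fragments, and +231.2 kb had a fold of 14.0. Past the run of 4, no peak was called for the last 103.5 kb up to the midpoint to Diras2, a Ras-like GTPase gene. The nearest calls outside the stretch belonged to its neighbours. On the side of Sema4d, a semaphorin gene, the peak at chr13:51851839-51852383 had a fold of 8.78 and 40 fragments, 63.4 kb past the midpoint. On the side of Diras2 the peak at chr13:52306954-52307213 had a fold of 12.7 and 50 fragments, 22.9 kb past the midpoint. A second peak assigned to Diras2, at chr13:52317505-52319017 and 376.6 kb from the Gadd45g TSS, had a fold of 112.9 and 650 fragments, above every peak of the family.

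The strength of the Gadd45g peaks was compared with that of the whole list. The median fold at Gadd45g was 16.9 over the 21 peaks, against 11.1 in the list. Of the 21, 14 exceeded the list median and 8 the upper quartile of 20.1, while 1 fell below the lower quartile of 7.84. Within the top 1000 by fold, which hold 7.76% of all peaks, were 2 of the 21 (9.52%). At Gadd45a, 2 of 3 peaks exceeded the list median and none the upper quartile. The Gadd45g peaks were also wide, with a median of 525 bp against 397 bp. Peaks at a gene share its locus and are not independent replicates, so no test was made of these differences.

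**Figure D3:**
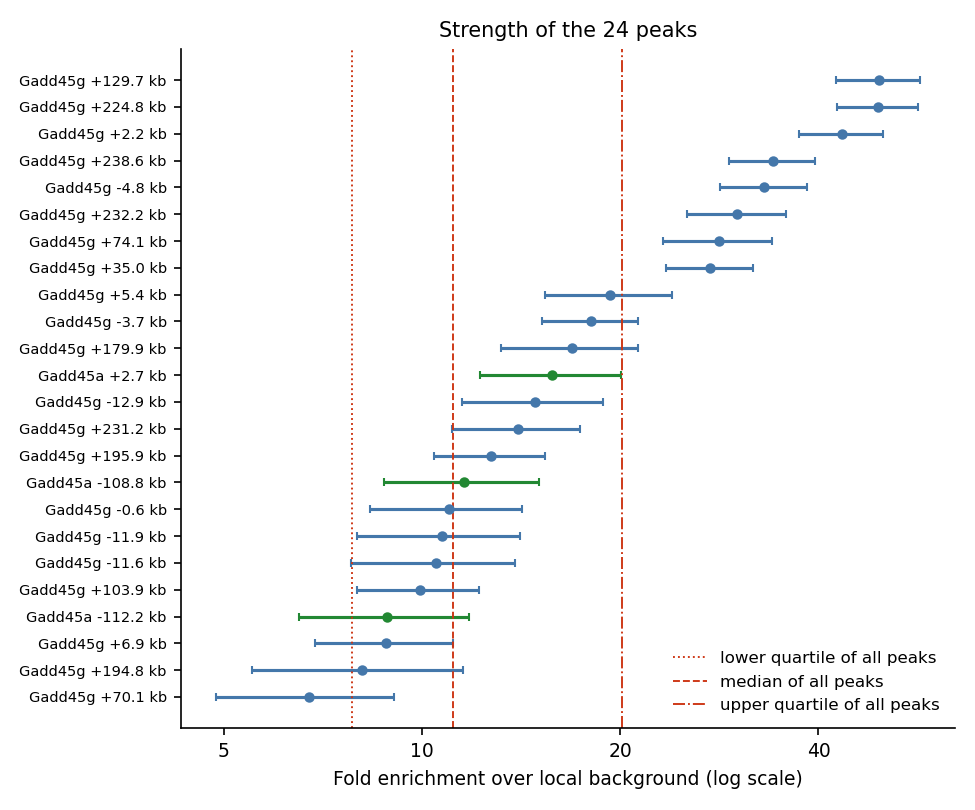
Fold enrichment over local background (x axis, log scale) of the 24 family peaks, each named by the distance of its summit from the TSS, with Poisson 95% intervals. Green is Gadd45a, blue is Gadd45g, and red lines are the quartiles and median of all 12885 peaks. A group of 8 Gadd45g peaks lies above the upper quartile of 20.1.

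Motifs were counted from 50 bp before to 50 bp after each summit. A GATA motif was present in 11 of the 24 family peaks, or 45.8%, against 73.2% of all peaks and 17.8% of windows 1 kb away from all summits. The family peaks come from only 2 loci, so this and the motif counts that follow are descriptions. It was found in 4 peaks of the run of 9 and in 6 of the 12 distal peaks. Over whole peaks instead of these windows the count was 18 of 24, against 89.4% of all peaks. E-boxes were in 15 of 24, against 52.6% of all peaks and 42.4% of the windows 1 kb away, so this short motif separates peaks from flanks little. CAGCTG, which is also counted as an E-box, was in 6 of 24, against 14.1% of all peaks. A pair of GATA motif and E-box was in 9 of 24, against 37.8% of all peaks, and neither was in 7, against 12.1%.

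The composite motif, which uses the letters GATA alone and so can occur where no GATA motif was counted, was present in 9 of 24 family peaks, against 32.9% of all peaks and 3.07% of the windows 1 kb away. It was unevenly spread, with 1 in the run of 9, 6 in the 12 distal peaks and 2 in the 3 peaks of Gadd45a. The number of bases between CTG and GATA was 9 in 6 of these peaks, 8 in 1 and 7 in 2. The ETS motif AGGAA was found in 9 of 24, against 51.9% of all peaks, and the RUNX motif TGNGGT in 9 of 24, against 20.8% of all peaks and 19.9% of the windows 1 kb away. In the family's own 48 windows 1 kb away from its summits, the RUNX motif was in 14, the ETS motif in 19, the composite in 3, the GATA motif in 11, the E-box in 26 and CAGCTG in 4. All motifs were searched on both strands. A match describes these letters and is not a measured contact of a factor.

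Motif content was also counted by the strength of the peaks. Of the 8 peaks with a fold of at least 20, 6 had a GATA motif and 7 an E-box, 5 of them CAGCTG, compared with 5, 8 and 1 of the other 16 peaks. In the list, 83.2% of peaks with a fold of at least 20 had a GATA motif and 69.8% of those under 20. For E-boxes these shares were 54.5% and 51.9%, and for CAGCTG 16.2% and 13.3%. The composite was in 3 of the 8 strong family peaks and in 6 of the other 16, an equal share, against 43.6% and 29.2% in the list. Where a GATA motif was present, its centre was a median of 12.5 bp from the summit, and 7 of 11 were within 20 bp. The peaks at −3.7, −0.6, +6.9 and +103.9 kb of Gadd45g had none of the GATA, E-box, composite and RUNX motifs.

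**Figure D4:**
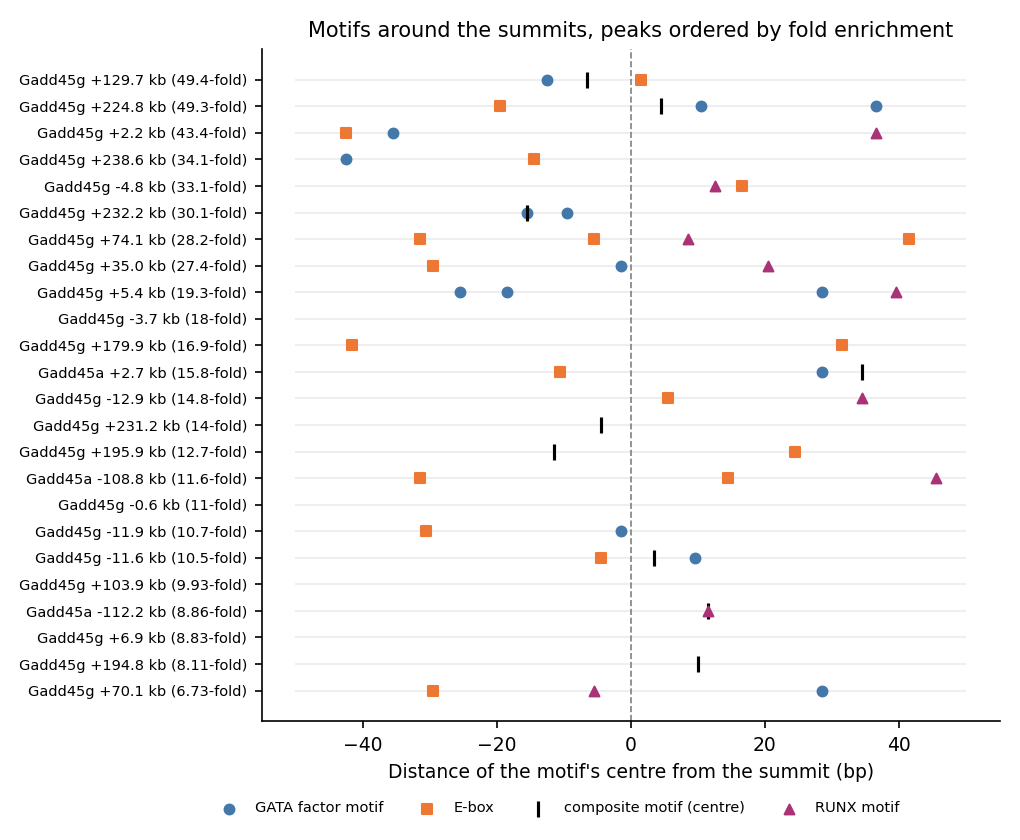
Positions of 4 motifs relative to the summit (x axis, bp) in the 24 family peaks, ordered by fold enrichment from bottom to top. Each symbol is the centre of a match on either strand. Of the 11 peaks with a GATA motif, 6 are among the 8 strongest.

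The promoters of the members were searched for the same motifs. In the 300 bp around the RefSeq TSS (250 before to 50 after; GRCm38.p6, used for sequence only), none of the 3 members had a GATA motif, a composite or an ETS motif, which were present in 29.8%, 7.18% and 66.7% of all 32851 promoters. All 3 had an E-box, as did 72.3% of promoters. CAGCTG was found only at Gadd45g, against 16.3% of promoters, and the RUNX motif only at Gadd45a, against 45.8%. With 3 promoters, these counts do not set the members apart from promoters in general. No summit of the family lay in these windows, the nearest being 617 bp upstream of the Gadd45g TSS in the mm9 annotation.

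Counted within 10 kb of the TSS, where the length of the surrounding gap matters less, Gadd45g had 6 peaks with a summed fold of 133.7. There were 20 other genes with at least as many, 11 of them in the high-background repeat at the start of chromosome 9. The other 9 were Glrx5 and Kalrn, with 7 each, and Accn4, Aplnr, Cbfa2t3, Ddc, Gse1, Plxna2 and Spns2 with 6 each. The genes most like Gadd45g by this count and by summed fold were Ddc (133.2), Gse1 (140.7), Cbfa2t3 (207.0), Plxna2 (83.5) and Accn4 (220.2). Of these only Gse1 and Cbfa2t3, which encodes the corepressor ETO2 known from the SCL complex, also had more than 10 nearest peaks, 19 and 13. The likeness is one of counts of peaks within a list and not across samples.

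Binding was also listed for genes that work with the family. The list of 31 partners, kinases, demethylation enzymes and regulators was written with earlier results of these data known. Of these genes, 15 (48.4%) had a nearest peak, against 29.1% of all genes, and 3 had at least 3, against 6.59%. These shares take no account of the length of DNA to which each gene is nearest, and the difference was not tested. The genes named below with fewer than 3 peaks were chosen after their values were seen. Among the regulators, 5 of 10 had a peak. Myc, whose product represses Gadd45a, had 9 over 1443 kb, or 0.624 per 100 kb, against 0.485 over all chromosomes. The strongest, with a fold of 62.1 (54.8 to 70.1), lay 171.7 kb from a Myc TSS, in an intron of Pvt1. Within 10 kb of a Myc TSS lay 1 peak. Nfkb1, a subunit of NF-κB, had 3 with a highest fold of 22.5, and Smad3, an effector of TGF-β signalling, had 3 with a highest fold of 20.6. Foxo3 had 2 and Egr1 had 1, while Trp53, Brca1, Atf4, Rela and Smad4 had none, although a peak nearer to another gene lay within 10 kb of a Trp53 TSS. Within 10 kb of a TSS, 5 of the 10 regulators and 10 of all 31 listed genes had a peak, against 16.6% of all genes.

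Among the direct partners 2 of 8 had a nearest peak, a share near the 29.1% of all genes, Cdkn1a (p21) with a fold of 24.7 and Mapk14 (p38α) with 15.6. Pcna, Cdk1, Ccnb1, Map3k4, Map2k7 and Npm1 had none. Within 10 kb of a TSS, 3 of the 8 had a peak, Cdkn1a, Mapk14 and Map2k7, against 16.6% of all genes, the peak at Map2k7 being nearer to another gene. Of the 5 stress kinases downstream, 4 had a peak, with Map2k4 the highest at 31.3 in 2 peaks, and 2 had a peak within 10 kb. Of the 8 demethylation genes, Tet1, Tet2, Tet3 and Ing1 had a peak, with highest folds of 20.2, 21.4, 10.5 and 9.86, whereas Tdg, Mbd4, Ercc5 and Apobec2 had none. None of the 8 had a peak within 10 kb of a TSS, the closest summits of the 4 lying 10.1 to 56.6 kb away. None of these genes approached the 21 peaks of Gadd45g.

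**Figure D5:**
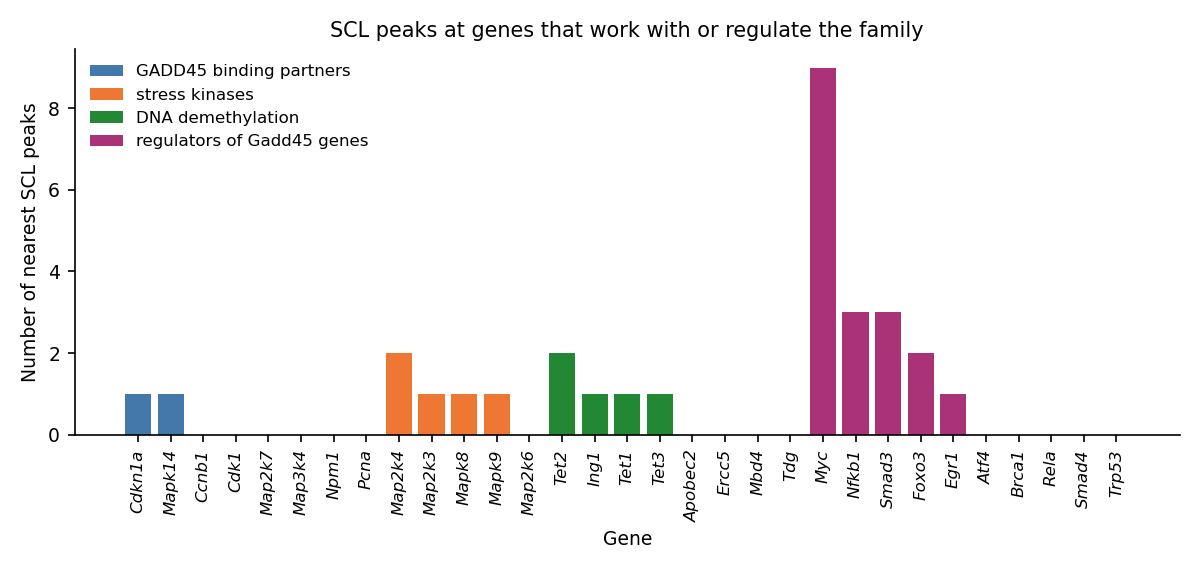
Number of nearest SCL peaks (y axis) of the 31 listed genes (x axis), grouped by their relation to the GADD45 proteins. Myc has 9 peaks, Nfkb1 and Smad3 have 3, and 16 genes have none.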

How the data were processed

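SCL ChIP-seq of day 3.5 FLK1+ cells comprised 2 ChIP and 2 input libraries, grouped by the labels. To make the list, the authors mapped paired-end reads on mm9, dropped duplicates, called peaks on the merged ChIP libraries against the merged inputs and set the list by the irreproducible discovery rate. The submitters' processing notes name Bowtie 1.1.2 and MACS2 2.0.10. The fold enrichment of each peak is a ratio to local background computed by the authors, pooled over libraries. In this ratio a single fragment is added both to the count at the summit and to the background. The −log10 p and −log10 q were deposited by the authors as MACS2 gave them. The score column was not used. Sequencing depth per library is not given in the sources used here.

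Fold and −log10 p were solved together for the whole number of fragments at the summit and the local background, which matched to within 0.001 in 99.9% of peaks. Exact Poisson 95% intervals of the fragments were carried to the fold with the background held fixed. Fragments above background are the difference of both, summed over a gene's peaks. These intervals cover counting error only.

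Summits were assigned to the nearest of 69963 TSSs of 22225 protein-coding genes (GENCODE vM1 on NCBIM37, the same build as mm9). Coordinates are counted from 1 and peak names use the TSS of the first transcript of each gene. A run joins summits within 10 kb of the next. Motifs were counted within 50 bp of summits and in windows 1 kb away on both sides. Python 3.11.15, numpy 2.4.6, pandas 2.3.3, scipy 1.17.1, pysam 0.24.0 and statsmodels 0.14.6 were used, and the steps were tested on simulated data.

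The members, gene lists and comparisons were chosen with earlier results of these data known. Named were the members, their neighbours, every peak of Gadd45a, the run at Gadd45g and other Gadd45g peaks of fold 20 or more, the 5 genes most like Gadd45g by peaks within 10 kb, genes with at least as many, and listed pathway genes with 3 or more peaks or a fold of at least 50. Other names were chosen after their values were seen. A gene of the pathway list and a gene with many nearest peaks are not reported here. Alternatives were other TSS sets, assignment rules, thresholds, window sizes and joining distances. No filter on low values was applied.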

Additional observations from a re-analysis of the deposited data

How the results depend on the processing

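Of 56 alternatives over the values given, 40 kept them within 1.5 times, and 16 did not. The 40 include every alternative for Gadd45b, whose count stayed 0, and the 56 include some chosen after seeing the data. With lincRNA and processed-transcript TSSs added, Gadd45g kept 10 of its 21 peaks, since 11 went to Gm16767, and Gadd45a kept 0. Counting only peaks within 10 kb of a TSS, or of the gene, left 6 at Gadd45g and 1 at Gadd45a. At a −log10 q of at least 50, Gadd45a had 1 peak, the run at Gadd45g 5 and the median fold at Gadd45g was 27.4, and joining summits within 50 kb gave a run of 14. Over whole peaks the GATA motif was in 18 family peaks and the E-box in 23, against 89.4% and 90.1% of all peaks. The rank of Gadd45g, an alternative set chosen after seeing the data, was 1 with protein-coding transcripts only, with the fold or q threshold and with peaks within 500 bp joined. It was 23 with the wider set of TSSs, 12 by peaks within 10 kb, where leaving out peaks of high background gave 3, and 7 when only peaks within 100 kb of their nearest TSS counted. Gadd45b had 0 peaks in every alternative run, although higher thresholds and added TSSs of other genes could not have raised a count of 0.

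The list is pooled, so leaving out each replicate could not be run. No paired analysis was possible because values of separate ChIP and input libraries are missing from it. Weak binding below the calling threshold, the spread between differentiations and the gene on which a distal site acts were not measured.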

Other observations

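Gadd45gip1, which encodes a protein that binds GADD45 proteins, was not in the list of partners and was looked up after the other values had been seen. No peak was nearest to it and none lay within 10 kb of its TSS, over a stretch of 4.71 kb. Diras2, on the far side of the gap downstream of Gadd45g, was the nearest gene over 368.2 kb, almost the same length as for Gadd45g, and had 2 peaks, against 21. These lay 319.1 and 307.6 kb from the TSS of Diras2. Sema4d, on the other side, had 2 peaks over 112.6 kb, with folds of 14.9 and 8.78, and the latter summit lay 11 bp from a TSS of Sema4d.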
